A study of Mus musculus with 6 samples.

Results

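The genes of glycolysis and pyruvate metabolism were examined in newborn mouse hippocampus with and without *Mov10*. The 36 genes were taken from a given list that runs from glucose uptake to the mitochondrial use of pyruvate. They were 36 of the 52230 genes found in the deposited quantifications and 36 of the 16745 that passed the filter on low counts. *Mov10* encodes an RNA helicase. The study profiled hippocampi at postnatal day 0 from 2 groups, *Mov10* Deletion and WT, with 3 libraries in each, and at least 2 pups went into each library. *Mov10* Deletion mice came, per the methods of the study, from breeding mice with floxed *Mov10* and Emx1-Cre to a constitutive *Mov10* heterozygous mutant, and the alleles carried by each pup were not given. The study described Emx1-Cre as depleting the protein in excitatory neurons of neocortex and hippocampus. Whether the Cre acted in other cells of the tissue, astrocytes included, was not given. A transgene on chromosome 6 had been used in an earlier generation to remove the selection cassette. The WT mice were described in the study as C57BL/6, and the labels gave neither strain nor sex.

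Glycolysis splits glucose into pyruvate in the cytosol and yields a small amount of ATP. Hexokinases trap glucose as glucose 6-phosphate, phosphofructokinase makes the committed step, and pyruvate kinase makes the last. Pyruvate is then reduced to lactate or taken into mitochondria, where the pyruvate dehydrogenase complex converts it to acetyl-CoA and pyruvate carboxylase to oxaloacetate. Most steps are served by several isozymes whose proportions differ between tissues and between neurons and glia.

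*Mov10* itself was measured first as a check of the labels. In CPM, the counts of a gene scaled to one common library total, its level was 2.45, 2.13 and 2.09 in Deletion replicates 1 to 3 against 4.81, 4.75 and 4.80 for the WT replicates, a log2 fold change of -1.11 ± 0.10 (SE, adjusted p = 0.00115). Fold changes are Deletion over WT from limma-trend on log2 CPM, with 2 estimated factors of unwanted variation, and p-values are Benjamini-Hochberg adjusted over all 16745 genes. A gene was called at an adjusted p below 0.05. Library totals ran from 71400300 to 86207971 estimated counts.

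The 36 genes were all expressed. Their summed level was 5210, 5158 and 5068 TPM (a level per transcript length, scaled to one common total) in the Deletion libraries and 5134, 5167 and 4892 TPM in WT, so the groups overlapped. *Gapdh* was the most abundant with 1056 to 1176 TPM, and 18 of the 36 genes averaged at least 100 TPM. The scarcest was *Slc16a3*, with 0.690 to 1.59 TPM.

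In the comparison of the genotypes, 3 of the 36 genes rose and 4 fell in *Mov10* Deletion hippocampus. The 3 that rose were the 3 phosphofructokinase genes *Pfkm*, *Pfkl* and *Pfkp*. The 4 that fell were *Pdk2*, a pyruvate dehydrogenase kinase, *Dld*, a subunit of that complex, and *Pcx* and *Pck2*, which act on mitochondrial pyruvate and oxaloacetate. Of all genes tested, 12.6% were called higher, 12.1% lower and 24.7% in either direction. The members' shares were 8.33%, 11.1% and 19.4%, below that background. The median log2 fold change was 0.037 over the members and 0.0056 over all genes, and the median absolute value was 0.094 against 0.13. The CPM values of the groups did not overlap for 17 of the 36 members, 11 higher and 6 lower in Deletion, which is 47.2% against 41.6% of all genes. With no factors in the fit, 3 members rose and 2 fell, beside 21.0% of all genes called. Counting protein-coding transcripts alone, 3 rose and 5 fell, beside 20.2% of all genes called. These were partly other genes, *Pfkm*, *Pfkl* and *Tpi1* higher and *Pfkp*, *Gpi1*, *Slc2a3*, *Dld* and *Pdk2* lower. Of the 7 calls of the main fit, 4 were kept in the same direction. That alternative was chosen after seeing the data. With a single library left out, 7 rose without Deletion replicate 1 (15.6% of all genes), Deletion replicate 3 (12.7%) or WT replicate 3 (15.1%). The number was 6 without Deletion replicate 2 (16.9%) or WT replicate 1 (14.3%) and 3 without WT replicate 2 (9.95%). In the other direction 7 fell without Deletion replicate 1 (15.2% of all genes), Deletion replicate 2 (18.0%) or WT replicate 3 (14.3%), and 1 fell without WT replicate 2 (6.89%).

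**Figure D1:**
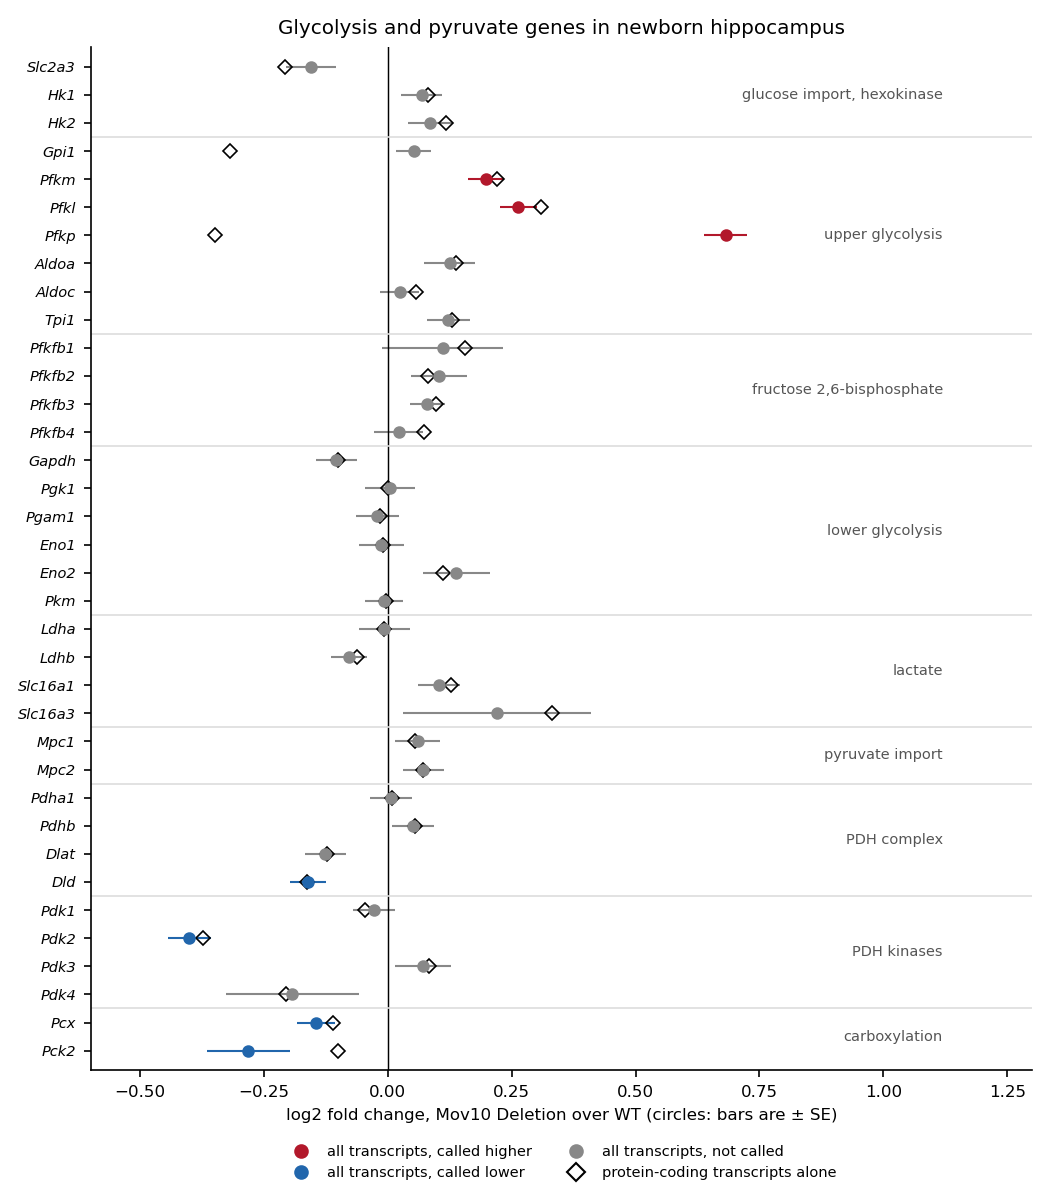
Log2 fold change (Deletion over WT) with its SE for each of the 36 genes, ordered by step. Circles are sums over all transcripts of a gene, coloured by call, and diamonds are protein-coding transcripts alone; the diamonds of *Pfkp* and *Gpi1* lie at -0.35 and -0.32, on the other side of 0 from their circles at 0.68 and 0.053.

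Glucose import and phosphorylation showed no call among 3 genes. *Slc2a3*, the glucose transporter of neurons, stood at 43.8, 46.9 and 41.6 TPM in Deletion and at 51.3, 49.7 and 44.0 TPM in WT. Its log2 fold change was -0.15 ± 0.051 (SE, adjusted p = 0.0595), and over its protein-coding transcripts alone it was -0.21 ± 0.044 (adjusted p = 0.0167). *Hk1*, the main brain hexokinase, measured 106 to 125 TPM over the 6 libraries, and *Hk2*, its inducible isozyme, 11.2 to 13.0 TPM. Their log2 fold changes were 0.068 ± 0.041 (adjusted p = 0.259) and 0.086 ± 0.044 (adjusted p = 0.19).

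All 3 genes of the phosphofructokinase step were called higher. *Pfkl* (ENSMUSG00000020277.12, GRCm39 chr10:77818084-77845922, minus strand), the liver-type subunit, stood at 71.3, 68.8 and 70.5 CPM in Deletion and at 61.0, 57.1 and 53.0 CPM in WT. Every Deletion library was above every WT library. The means were 70.2 ± 1.28 and 57.0 ± 4.01 CPM (SD, n = 3 each), and the log2 fold change was 0.26 ± 0.037 (SE, adjusted p = 0.00372), a 1.20-fold rise. *Pfkm* (ENSMUSG00000033065.16, chr15:97990451-98031417, plus strand), the muscle-type subunit and the most abundant of the coding phosphofructokinase messages here, stood at 147, 155 and 149 CPM in Deletion and at 133, 132 and 123 CPM in WT. Again the groups did not overlap, and the log2 fold change was 0.20 ± 0.036 (adjusted p = 0.00845), a 1.15-fold rise. Both genes were also called over protein-coding transcripts alone, with log2 fold changes of 0.31 ± 0.058 for *Pfkl* and 0.22 ± 0.041 for *Pfkm* (adjusted p = 0.011 each). In whole tissue, a change in the number of cells of a type and a change in the RNA per cell cannot be told apart.

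*Pfkp* (ENSMUSG00000021196.16, chr13:6629798-6698970, minus strand), the platelet-type subunit, had the highest fold change of the 36 genes. Its CPM values were 290.2, 325 and 329.9 in Deletion and 210.2, 195 and 160.2 in WT, with means of 315 ± 21.6 and 189 ± 25.7 (SD, n = 3 each). The log2 fold change was 0.68 ± 0.043 (SE, adjusted p = 0.000616), a 1.60-fold rise.

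**Figure D2:**
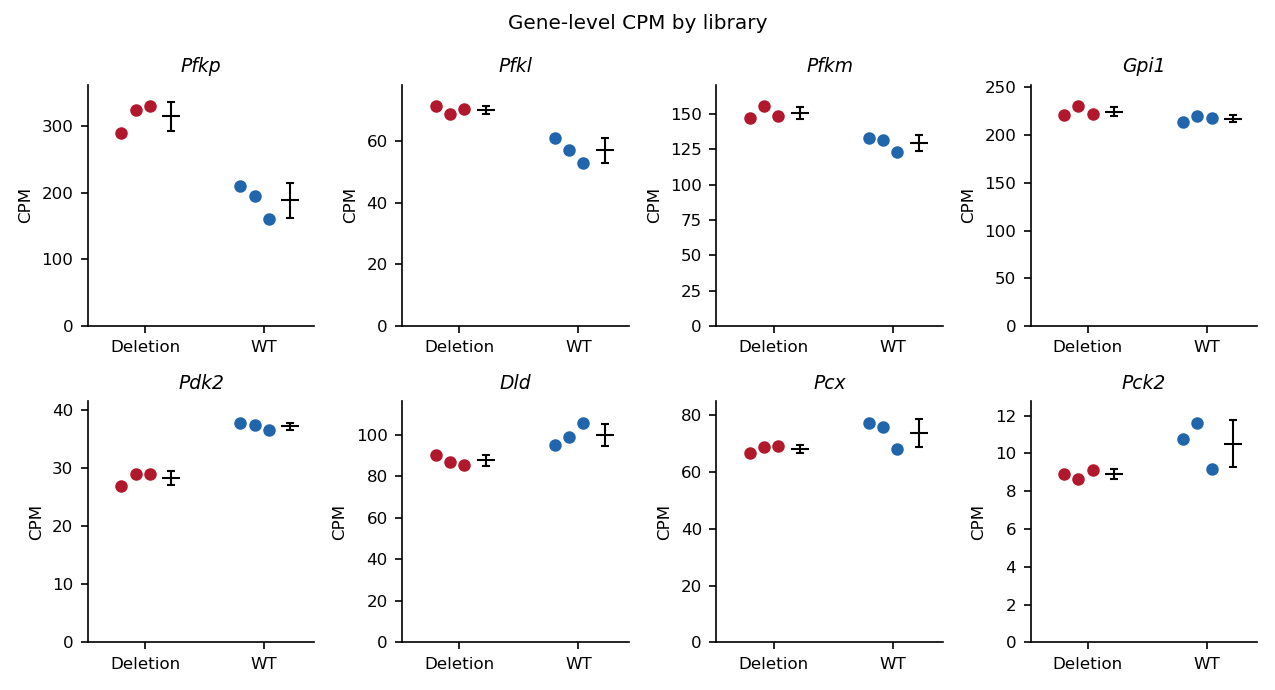
CPM in each library of *Pfkp*, *Pfkl*, *Pfkm*, *Gpi1*, *Pdk2*, *Dld*, *Pcx* and *Pck2*, 1 point per library, with the group mean and SD (n = 3 each). The Deletion and WT points of *Pfkp*, *Pfkl*, *Pfkm*, *Gpi1*, *Pdk2*, *Dld* and *Pck2* do not overlap, by 9.15 against 9.18 CPM for the nearest points of *Pck2*, and those of *Pcx* do.

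Most of the counts of *Pfkp* lay on transcripts that GENCODE annotates as retaining introns. The share of its counts on transcripts that are not protein-coding was 91.8%, 91.0% and 92.8% in Deletion and 85.3%, 83.0% and 78.5% in WT. The longest of these, Pfkp-212, is annotated with 8681 bases in 16 exons, and its last exon (chr13:6638991-6646098, 7108 bases) runs on through sequence that the coding transcripts splice out. Pfkp-212 held 57.8, 63.5 and 67.8 TPM in Deletion and 40.6, 36.2 and 27.3 TPM in WT. Its last exon begins inside an intron of the coding transcripts. The 120 bases around that start (chr13:6646039-6646158, minus strand) are shown because they mark where Pfkp-212 leaves the coding structure, with the first bases of the exon in capitals:
Pfkp-212 last exon start: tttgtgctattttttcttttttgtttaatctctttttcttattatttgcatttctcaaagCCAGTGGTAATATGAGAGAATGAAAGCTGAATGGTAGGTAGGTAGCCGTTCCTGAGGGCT

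The other intron-retaining transcripts that held at least 10% of *Pfkp* TPM in any library were higher in Deletion too, without overlap. Pfkp-202 (2680 bases, of which 313 are intronic) stood at 27.8, 28.8 and 31.5 TPM against 17.5, 15.4 and 10.3 TPM in WT. Pfkp-210 (702 bases) stood at 20.04, 26.3 and 25.0 TPM against 16.2, 15.5 and 13.4 TPM. The coding transcripts gave the opposite order. Their summed counts were 1948, 2221 and 1704 in Deletion and 2669, 2513 and 2644 in WT. The log2 fold change over them alone was -0.35 ± 0.072 (SE, adjusted p = 0.0156), a 1.27-fold fall.

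The coding transcripts of *Pfkp* were Pfkp-201 and Pfkp-207, which in the GENCODE annotation used here share the same length of 4308 bases, number of exons and ends, and differ by a choice between 2 exons of 153 bases. In the deposited quantification their lengths were 2679 and 4145 bases, so the models that reads were divided among were shorter, that of Pfkp-201 above all. Pfkp-201 stood at 6.03, 8.43 and 4.65 TPM in Deletion and at 10.5, 11.9 and 13.2 TPM in WT, without overlap. Pfkp-207 stood at 7.90, 8.58 and 9.04 TPM in Deletion and at 8.58, 8.45 and 7.52 TPM in WT, with overlap. The exon of Pfkp-201 (chr13:6643137-6643289) lies within the last exon of Pfkp-212, so reads inside it fit both transcripts, and the exon of Pfkp-207 (chr13:6647895-6648047) does not. Both are printed from the minus strand of GRCm39, with the differing bases in capitals. They match at 90 of the 153 positions (58.8%):
Pfkp-201 exon: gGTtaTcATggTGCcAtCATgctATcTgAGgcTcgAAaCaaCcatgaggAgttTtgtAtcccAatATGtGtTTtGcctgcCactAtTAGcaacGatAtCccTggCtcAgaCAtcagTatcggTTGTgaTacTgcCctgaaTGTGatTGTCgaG
Pfkp-207 exon: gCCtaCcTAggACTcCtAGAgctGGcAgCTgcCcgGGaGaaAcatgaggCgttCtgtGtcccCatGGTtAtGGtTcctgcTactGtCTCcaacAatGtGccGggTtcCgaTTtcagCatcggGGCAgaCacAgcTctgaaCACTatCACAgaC

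The usage of the transcripts of *Pfkp* relative to each other was not called, at an adjusted p of 0.0632 (limma diffSplice F test over 10338 genes), while with no factors in the fit it was 0.00632. Summed over the 3 genes, protein-coding transcripts gave 142, 144 and 142 TPM in Deletion and 133, 129 and 119 TPM in WT. All transcripts gave 261, 278 and 285 TPM against 219, 204 and 180.5 TPM. Both sums were higher in Deletion without overlap, by more where all transcripts were counted.

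*Gpi1* (ENSMUSG00000036427.7, chr7:33900755-33929780, minus strand) encodes glucose 6-phosphate isomerase, which makes the substrate of phosphofructokinase. Its CPM values were 221, 230.1 and 222 in Deletion and 214, 220.1 and 218 in WT, and its gene-level log2 fold change of 0.053 ± 0.035 was not called (adjusted p = 0.305). Beneath that, its transcripts were used differently (adjusted p = 0.00083, diffSplice). Gpi1-201, the full-length coding transcript of 18 exons (2884 bases as deposited, 2903 in the annotation), stood at 85.6, 97.0 and 86.4 TPM in Deletion and at 108, 113 and 116 TPM in WT. Over protein-coding transcripts alone, *Gpi1* fell with a log2 fold change of -0.32 ± 0.060 (SE, adjusted p = 0.0117), a 1.25-fold fall.

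The intron-retaining transcripts of *Gpi1* went the other way. Gpi1-203, which has an exon of 2128 bases (chr7:33907675-33909802), stood at 33.7, 27.5 and 33.7 TPM in Deletion and at 16.4, 13.8 and 9.01 TPM in WT. Gpi1-211 stood at 33.7, 30.5 and 36.1 TPM in Deletion and at 20.6, 16.7 and 11.2 TPM in WT. All 3 transcripts passed the diffSplice test of a single transcript against the rest of the gene, with adjusted p-values of 0.00367 for Gpi1-201, 0.00294 for Gpi1-203 and 0.0196 for Gpi1-211. Gpi1-207, annotated as a target of nonsense-mediated decay, measured 36.9 to 43.9 TPM with overlapping groups, and passed the same test at an adjusted p of 0.0157 with a lower usage in Deletion. The share of *Gpi1* counts outside coding transcripts was 44.1%, 37.4% and 44.2% in Deletion and 27.5%, 24.5% and 19.9% in WT.

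Gpi1-211 ends in an exon of 801 bases that includes 747 intronic bases. The 114 bases at the point where it leaves Gpi1-201 (chr7:33915321-33915434, minus strand) are given with the bases that Gpi1-201 keeps in capitals:
Gpi1-211 boundary: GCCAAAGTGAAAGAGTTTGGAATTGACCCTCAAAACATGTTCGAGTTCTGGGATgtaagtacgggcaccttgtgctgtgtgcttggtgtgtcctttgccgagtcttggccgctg

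**Figure D3:**
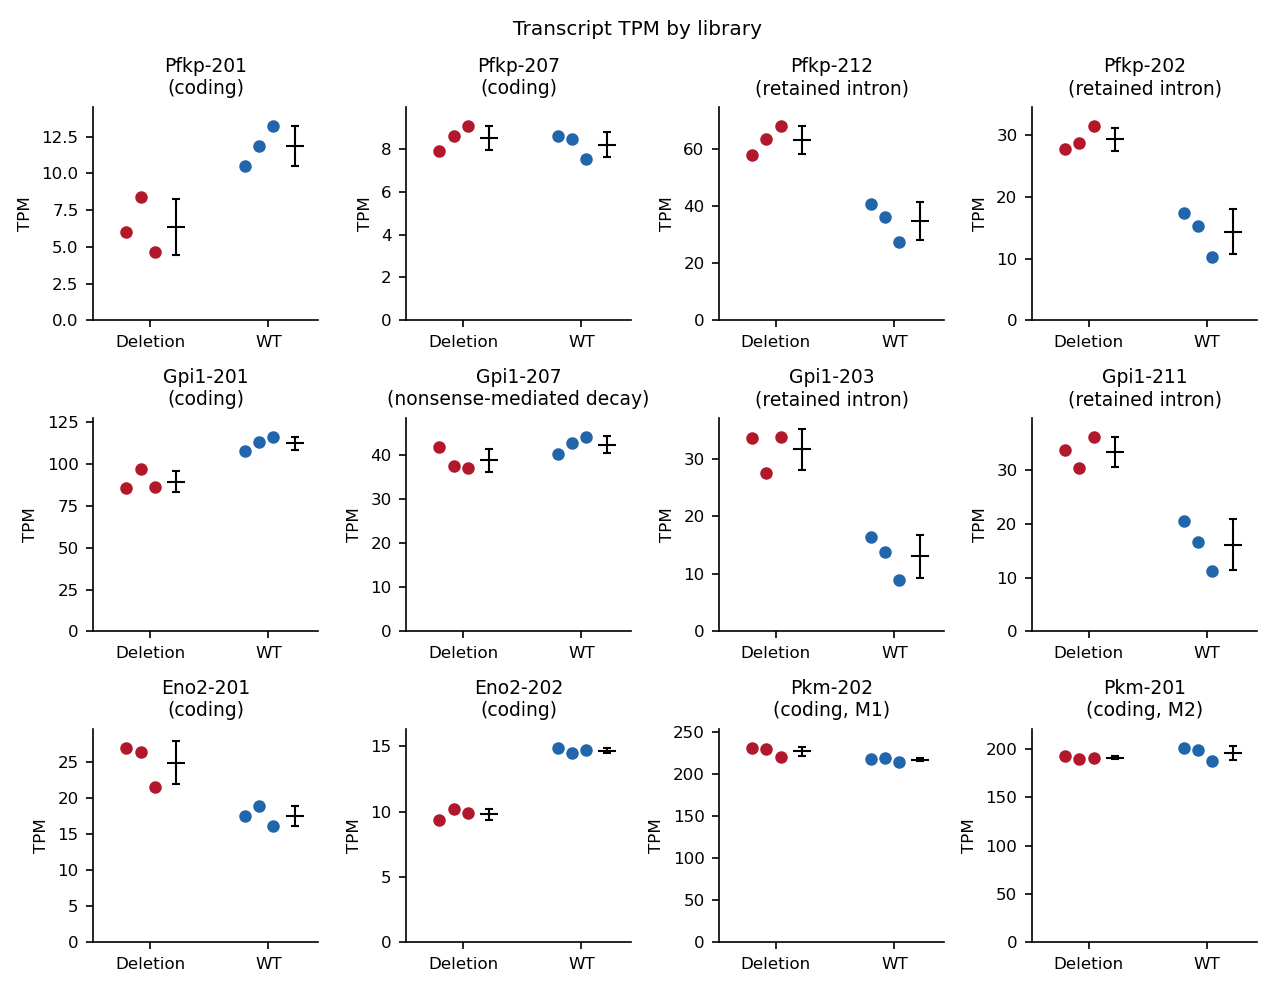
TPM in each library of transcripts of *Pfkp*, *Gpi1*, *Eno2* and *Pkm*, 1 point per library, with the group mean and SD (n = 3 each). Deletion points lie above WT points for Pfkp-212, Pfkp-202, Gpi1-203, Gpi1-211, Eno2-201 and Pkm-202 and below them for Pfkp-201, Gpi1-201 and Eno2-202.

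The whole libraries differed in the same quantity. Transcripts annotated as retaining introns took 2.90%, 2.84% and 3.29% of all counts in the Deletion libraries and 2.65%, 2.47% and 2.44% in WT. Protein-coding transcripts took 92.3%, 92.3% and 91.7% against 92.7%, 92.9% and 92.9%. Among the 31 members with any noncoding count, the noncoding share was higher in all Deletion libraries than in all WT libraries for 7 (*Slc2a3*, *Gpi1*, *Pfkp*, *Tpi1*, *Gapdh*, *Eno1* and *Pdha1*) and lower for 1 (*Aldoc*). The background over all genes was 16.4% higher and 4.52% lower. For *Tpi1*, *Gapdh*, *Eno1* and *Pdha1* that share stayed near or below 1% of the gene's counts. The part of the library-wide share in the results for *Pfkp* and *Gpi1* was not tested.

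The remaining genes of upper glycolysis gave no call. *Aldoa*, the broadly expressed aldolase, stood at 292, 289 and 271 TPM in Deletion and at 263, 266 and 227 TPM in WT. Its groups did not overlap, and its log2 fold change was 0.12 ± 0.051 (adjusted p = 0.111). *Tpi1*, triosephosphate isomerase, stood at 168, 163 and 158 TPM against 153, 151 and 137 TPM, also without overlap. Its log2 fold change was 0.12 ± 0.043 (adjusted p = 0.075), and over protein-coding transcripts alone 0.13 (adjusted p = 0.0494). *Aldoc*, the aldolase of astrocytes, overlapped between groups at 175 to 193 TPM (log2 fold change 0.024 ± 0.040, adjusted p = 0.695), and its transcript usage was called (adjusted p = 0.0155). That call was lost with no factors (0.0819), without WT replicate 2 (0.0734), without WT replicate 3 (0.112) and with transcripts at 1 CPM or more (0.687), all adjusted p-values from diffSplice. The summed level of the 7 genes of upper glycolysis was 1107, 1102 and 1118 TPM in Deletion and 1008, 1000.2 and 900.1 TPM in WT. Over protein-coding transcripts alone the sum was 869, 859 and 839 TPM against 831, 838 and 760.4 TPM. Both sums were higher in all Deletion libraries, the coding sum by 839 against 838 TPM at the nearest pair.

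The 4 bifunctional enzymes that set fructose 2,6-bisphosphate, the activator of phosphofructokinase, gave no call. *Pfkfb3*, whose kinase activity prevails, stood at 48.4, 47.7 and 48.4 TPM in Deletion and at 46.7, 45.7 and 44.8 TPM in WT, a log2 fold change of 0.080 ± 0.035 (adjusted p = 0.132). *Pfkfb2* measured 45.3 to 56.8 TPM with a log2 fold change of 0.10 ± 0.057 (adjusted p = 0.212). *Pfkfb4* and *Pfkfb1* were scarcer, at 13.3 to 15.1 and 3.63 to 4.16 TPM, and their groups overlapped (adjusted p = 0.774 and 0.538).

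None of the 6 genes of lower glycolysis was called. *Gapdh*, the dehydrogenase often used as a reference gene, stood at 1087, 1089 and 1056 TPM in Deletion and at 1148, 1176 and 1144 TPM in WT. Every Deletion library was below every WT library, with a log2 fold change of -0.10 ± 0.042 (adjusted p = 0.104). Close copies of *Gapdh* elsewhere in the genome held 0.871% to 1.008% of the counts of the gene and its copies. *Pgk1*, *Pgam1*, *Eno1* and *Pkm*, the kinase, mutase, enolase and pyruvate kinase that follow, had log2 fold changes of 0.0041, -0.021, -0.013 and -0.0079 (adjusted p = 0.961, 0.751, 0.854 and 0.898).

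*Eno2*, the enolase of neurons, overlapped in total at 62.9 to 73.7 TPM in Deletion and 57.8 to 63.9 TPM in WT (log2 fold change 0.14 ± 0.067, adjusted p = 0.167). Its transcripts were used differently, with an adjusted p of 0.000582 (diffSplice), the lowest of the members. Eno2-201, the full coding transcript of 12 exons, stood at 26.9, 26.4 and 21.6 TPM in Deletion and at 17.6, 18.9 and 16.2 TPM in WT. Eno2-202, which lacks 2 of its exons in the annotation used here (its deposited length was 2386 bases against 2438 there), stood at 9.33, 10.2 and 9.87 TPM in Deletion and at 14.8, 14.5 and 14.7 TPM in WT. Neither pair of groups overlapped. Eno2-201 thus held 40.0%, 35.7% and 34.3% of the TPM of *Eno2* in Deletion and 27.5% to 29.6% in WT, and Eno2-202 held 13.9%, 13.8% and 15.7% against 23.2%, 22.7% and 25.4%. Eno2-202 passed the single-transcript test at an adjusted p of 0.0122, and Eno2-201 did not (adjusted p = 0.76). Among transcripts below 10% of the TPM of *Eno2*, Eno2-216 passed it with a higher usage in Deletion (adjusted p = 0.000112). Eno2-210 passed it with a lower usage (adjusted p = 0.0129). The exons of Eno2-201 that Eno2-202 lacks hold 357 bases together. They are printed whole from the minus strand, since reads over them separate Eno2-201 from Eno2-202. The first lies at chr6:124743494-124743627 and the second at chr6:124743068-124743290:
Eno2 skipped exon 1: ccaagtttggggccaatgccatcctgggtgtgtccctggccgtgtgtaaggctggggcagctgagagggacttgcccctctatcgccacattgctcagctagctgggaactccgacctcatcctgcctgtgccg
Eno2 skipped exon 2: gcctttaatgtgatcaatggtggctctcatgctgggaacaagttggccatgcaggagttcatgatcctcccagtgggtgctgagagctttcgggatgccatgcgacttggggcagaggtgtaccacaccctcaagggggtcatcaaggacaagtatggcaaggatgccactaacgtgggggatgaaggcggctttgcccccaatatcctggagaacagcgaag

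Of the 29 members with at least 2 testable transcripts, 5 had a called usage, *Eno2*, *Gpi1*, *Eno1*, *Aldoc* and *Pdhb*, beside 7.60% of all genes tested. The adjusted p-values of *Eno1* and *Pdhb* were 0.0044 and 0.0247. The count was 8 without Deletion replicate 1 (6.96% of all genes), 3 without WT replicate 3 (2.80%) and 1 without WT replicate 2 (1.41%). The usage of *Eno2* was called in all of these fits, and that of *Gpi1* in all but the last, where its adjusted p was 0.0639.

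Across the 36 genes, 75 transcripts held at least 10% of a gene's TPM in any library. Of these 13 were higher and 8 lower in all Deletion libraries than in all WT libraries, beside 14.5% and 13.8% of such transcripts over all genes. Those not described singly were Pfkm-201, Pfkl-201, Aldoa-201, Pfkfb3-201, Mpc2-201 and a retained-intron transcript of *Pfkfb2* among the higher and Hk1-205, Gapdh-203, Dlat-201, Dld-201 and Pdk2-201 among the lower. Pfkfb3-201 stood at 23.5, 21.3 and 24.3 TPM in Deletion and at 20.5, 19.0 and 19.8 TPM in WT. Hk1-205 stood at 15.7, 17.0 and 18.52 TPM in Deletion and at 21.2, 19.2 and 18.54 TPM in WT, and its single-transcript test was not called (adjusted p = 0.0883).

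*Pkm* is the textbook case of a choice between exons in this pathway. Its M1 form is the constitutively active one of differentiated tissue and its M2 form the regulated one of proliferating cells. Both exons hold 167 bases and match at 103 positions (61.7%). They are printed from the plus strand, with differing bases in capitals, since these bases and their junctions separate the exons. The annotated transcripts also differ in where they end, at chr9:59586658 for Pkm-201 and chr9:59586472 for Pkm-202. The M1 exon lies at chr9:59582312-59582478 and the M2 exon at chr9:59582851-59583017:
Pkm M1 exon: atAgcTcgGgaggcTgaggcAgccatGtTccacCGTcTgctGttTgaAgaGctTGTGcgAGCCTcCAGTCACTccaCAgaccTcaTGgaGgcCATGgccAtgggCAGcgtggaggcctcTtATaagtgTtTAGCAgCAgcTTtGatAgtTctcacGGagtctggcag
Pkm M2 exon: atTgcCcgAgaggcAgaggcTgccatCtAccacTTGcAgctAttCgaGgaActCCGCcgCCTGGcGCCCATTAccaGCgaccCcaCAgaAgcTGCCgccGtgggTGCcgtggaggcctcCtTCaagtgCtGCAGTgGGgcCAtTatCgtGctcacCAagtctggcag

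The deposited lengths of Pkm-202 and Pkm-201 were 2041 and 2432 bases, against 2262 and 2448 in the annotation used here. The M1 transcript Pkm-202 stood at 230, 230 and 220 TPM in Deletion and at 218, 219 and 215 TPM in WT. The M2 transcript Pkm-201 stood at 192, 189 and 191 TPM in Deletion and at 200, 198 and 187 TPM in WT. By these estimates newborn hippocampus held both forms at similar levels. Since the deposited transcripts differed in length too, the division of reads between them did not rest on the exon choice alone. M1 took 54.5%, 54.9% and 53.6% of their sum in Deletion and 52.1%, 52.5% and 53.4% in WT, which is 54.3 ± 0.655% against 52.7 ± 0.681% (SD, n = 3 each). The groups did not overlap, by a small margin, and the usage test over all transcripts of *Pkm* was not called (adjusted p = 0.457).

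Genes of lactate metabolism gave no call. *Ldha*, the lactate dehydrogenase subunit that favours lactate, measured 317 to 350.0 TPM in Deletion and 313 to 344 TPM in WT (log2 fold change -0.0070, adjusted p = 0.934). *Ldhb*, the subunit that favours pyruvate, stood at 108, 106 and 109 TPM in Deletion and at 113, 113 and 116 TPM in WT, without overlap but with a log2 fold change of only -0.078 (adjusted p = 0.156). The lactate transporter *Slc16a1* lies 0.136 Mb from *Mov10*. It stood at 67.8, 51.9 and 51.4 CPM in Deletion and at 55.4, 51.1 and 43.2 CPM in WT, and the high value belonged to Deletion replicate 1. That library also held the most choroid plexus and meningeal marker RNA, 180 TPM in sum over 8 genes against 25.6 and 38.8 TPM in the other Deletion libraries and 50.6 to 64.5 TPM in WT. The part of this in *Slc16a1* was not tested. Its log2 fold change was 0.10 (adjusted p = 0.114) and ran from -0.0012 to 0.27 over the alternatives. *Slc16a3*, the lactate exporter of glycolytic cells, had a log2 fold change of 0.22 ± 0.19 (adjusted p = 0.425), with too few counts for a narrower interval.

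*Mpc1* and *Mpc2* together form the mitochondrial pyruvate carrier. *Mpc1* stood at 292, 277 and 268 TPM in Deletion and at 267, 265 and 267 TPM in WT, and *Mpc2* at 119, 115 and 114 TPM against 114, 108 and 104 TPM. Their log2 fold changes of 0.060 and 0.072 were not called (adjusted p = 0.362 and 0.233).

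Within the pyruvate dehydrogenase complex, *Dld* fell and the other 3 genes were not called. *Dld* (ENSMUSG00000020664.12, chr12:31379323-31401452, minus strand) encodes the dihydrolipoamide dehydrogenase subunit that the complex shares with other 2-oxoacid dehydrogenases. It stood at 90.5, 86.9 and 85.6 CPM in Deletion and at 95.0, 98.8 and 106 CPM in WT. The groups did not overlap, the means were 87.6 ± 2.54 and 99.8 ± 5.42 CPM (SD, n = 3 each) and the log2 fold change was -0.16 ± 0.036 (SE, adjusted p = 0.0173). Without WT replicate 2 the adjusted p was 0.0671, and *Dld* was called in 22 of the 28 alternatives run. *Dlat*, the acetyltransferase core, stood at 43.0, 42.2 and 42.8 TPM in Deletion and at 45.2, 47.0 and 46.2 TPM in WT, a log2 fold change of -0.13 ± 0.042 (adjusted p = 0.0635). *Pdha1* and *Pdhb*, the subunits of the first enzyme, had log2 fold changes of 0.0057 and 0.050 (adjusted p = 0.935 and 0.408).

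The pyruvate dehydrogenase kinases phosphorylate and so inhibit the complex. *Pdk2* (ENSMUSG00000038967.15, chr11:94914929-94932242, minus strand) stood at 27.0, 29.0 and 29.0 CPM in Deletion and at 37.8, 37.4 and 36.6 CPM in WT. The spread within each group was small beside the gap, with means of 28.3 ± 1.18 and 37.3 ± 0.636 CPM (SD, n = 3 each). The log2 fold change was -0.40 ± 0.043 (SE, adjusted p = 0.00176), a 1.32-fold fall, and -0.37 over protein-coding transcripts alone (adjusted p = 0.00438). *Pdk2* was the only member called in all 28 alternatives run, between -0.42 and -0.36. *Pdk1* measured 18.8 to 20.2 TPM and *Pdk3* 20.1 to 23.5 TPM over the 6 libraries, with log2 fold changes of -0.028 and 0.071 (adjusted p = 0.662 and 0.387). *Pdk4*, the kinase induced by fasting in other tissues, was low at 1.71 to 2.51 TPM (log2 fold change -0.19, adjusted p = 0.324). The 4 kinases together held 70.3, 68.9 and 69.9 TPM in Deletion and 77.7, 77.9 and 74.9 TPM in WT, without overlap.

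Pyruvate carboxylase and mitochondrial phosphoenolpyruvate carboxykinase were called by a smaller margin. *Pcx* (ENSMUSG00000024892.19, chr19:4559902-4672189, plus strand), which is found mainly in astrocytes in brain, stood at 66.5, 68.7 and 69.1 CPM in Deletion and at 77.3, 75.8 and 68.3 CPM in WT. WT replicate 3 lay inside the Deletion range. The log2 fold change was -0.15 ± 0.039 (SE, adjusted p = 0.0307), and the adjusted p was 0.151 with no factors and 0.336 without WT replicate 1. *Pck2* (ENSMUSG00000040618.9, chr14:55777542-55788758, plus strand) stood at 8.90, 8.64 and 9.15 CPM in Deletion and at 10.8, 11.6 and 9.18 CPM in WT. Its log2 fold change was -0.28 ± 0.084 (adjusted p = 0.0444), with an adjusted p of 0.0976 with no factors, 0.143 without WT replicate 1 and 0.169 without WT replicate 2. Without WT replicate 2 the adjusted p of *Pcx* was 0.174. Over protein-coding transcripts alone the log2 fold change of *Pck2* was -0.10 (adjusted p = 0.611). Of 28 alternatives, *Pcx* was called in 10 and *Pck2* in 8.

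**Figure D4:**
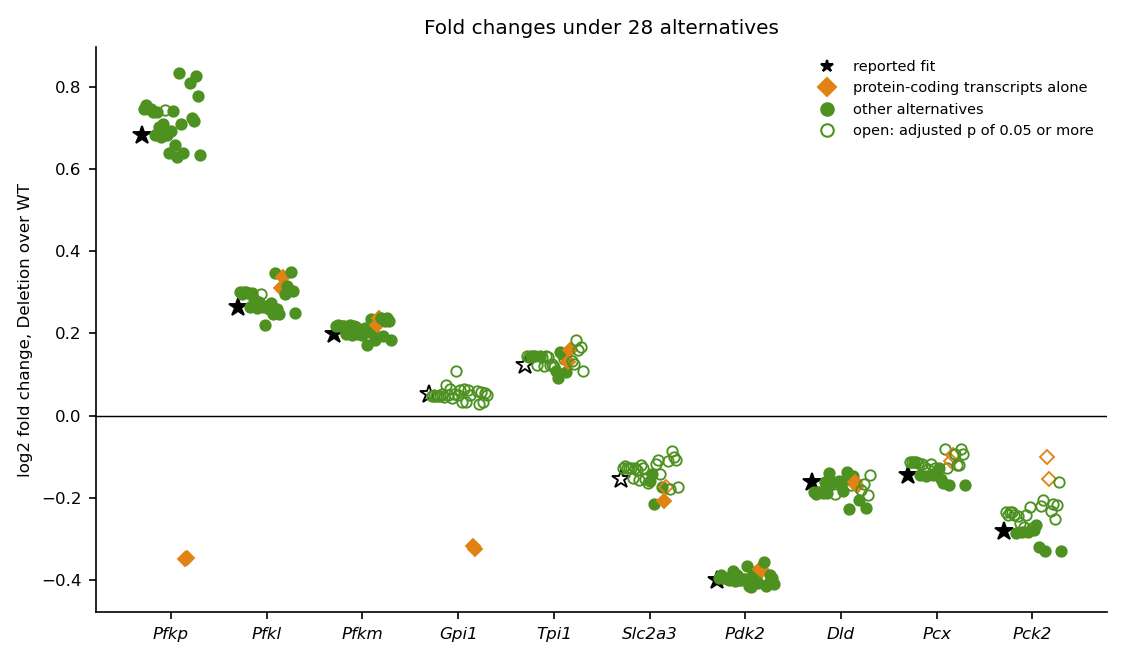
Log2 fold change of 10 members under the reported fit and the 28 alternatives, 1 point per fit. Filled points had an adjusted p below 0.05 and diamonds count protein-coding transcripts alone; *Pdk2* is filled throughout, and the diamonds of *Pfkp* lie near -0.35.

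The makeup of each step was also compared as the share of its TPM held by each isozyme, for 18 shares. Of these, 9 did not overlap between groups. Among the 9 were the shares of *Pfkm*, *Pfkl* and *Pfkp* and those of *Pdk1*, *Pdk2* and *Pdk3*. Shares within a step add up to the whole of that step, so they are not independent. The 9 are therefore not a count of separate changes, and no such count was made over all genes. An exact two-sided permutation test of 3 against 3 libraries cannot go below p = 0.1, which these 9 shares reached, and their adjusted p was 0.2, so no share could pass the threshold. *Pfkp* held 50.3 ± 1.76% of phosphofructokinase TPM in Deletion and 42.5 ± 1.74% in WT (SD, n = 3 each). *Pfkm* held 34.7 ± 1.38% against 40.3 ± 1.28%, and *Pfkl* 15.0 ± 0.679% against 17.2 ± 0.829%. Over protein-coding transcripts alone all 3 directions turned: *Pfkp* held 10.4% against 15.9%, *Pfkm* 66.6% against 63.7% and *Pfkl* 23.0% against 20.4%.

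Among the kinases, *Pdk2* held 37.1 ± 1.78% of the TPM in Deletion and 44.3 ± 0.476% in WT. *Pdk1* and *Pdk3* held correspondingly more in Deletion, 28.1% against 25.4% and 32.2% against 27.3%. The share of *Eno1* among enolases was 81.3% against 82.6%. The shares of *Hk1*, *Aldoa*, *Ldha*, *Slc16a1* and *Mpc1* overlapped between groups. *Hk1* held a mean of 90.6% of hexokinase TPM in Deletion and 90.7% in WT, *Aldoa* 60.2% and 57.7% of aldolase TPM, and *Ldha* 75.7% and 74.4% of lactate dehydrogenase TPM.

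**Figure D5:**
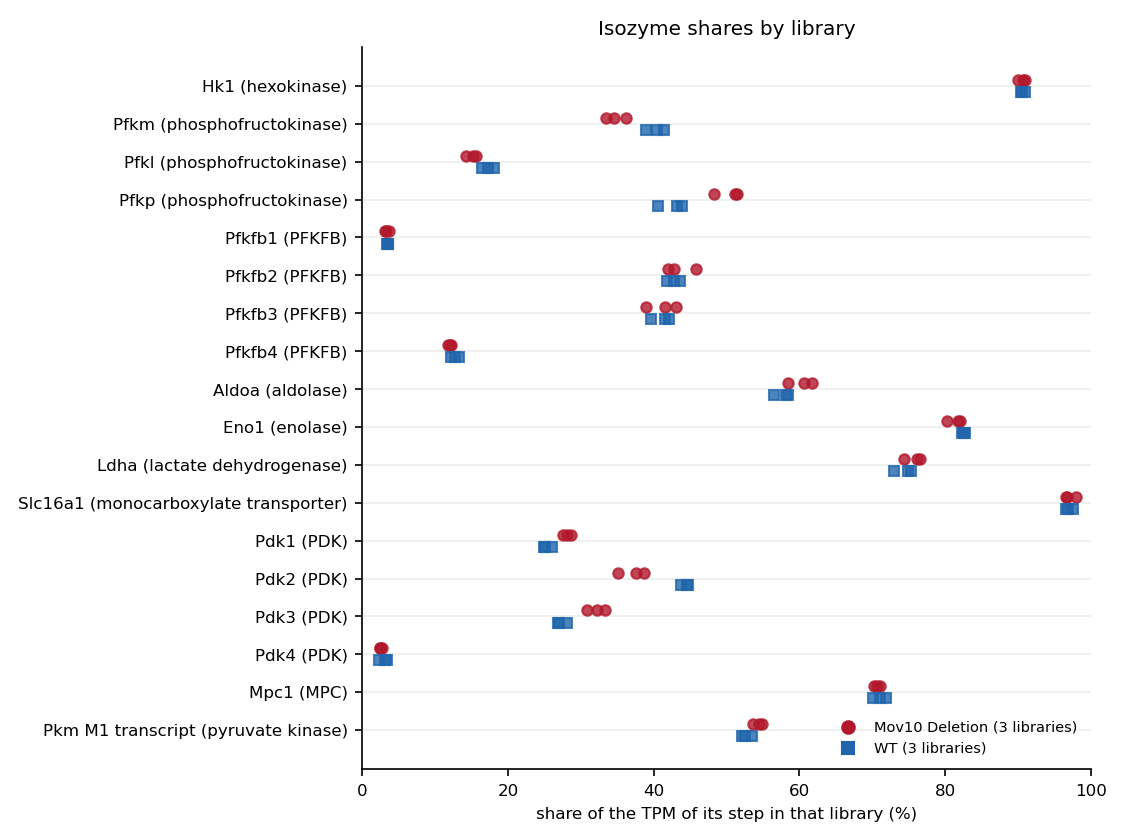
Share (%) of the TPM of its step held by each isozyme, and by the M1 form of *Pkm*, in each library; circles are Deletion and squares WT (n = 3 each). The groups separate for 9 of the 18 shares, among them *Pfkp* at 48.3 to 51.4% in Deletion and 40.5 to 43.8% in WT. Shares within a step are not independent.

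Lists of neighbouring pathway genes gave 98 genes, of which 88 were tested. Of these 14 rose and 11 fell, 28.4% in all beside the background of 24.7%. Among 27 tested isozymes and partners of the members, 6 rose and 4 fell. *Adpgk*, which phosphorylates glucose with ADP, rose with a log2 fold change of 0.39 (adjusted p = 0.00688), but by 0.20 over protein-coding transcripts alone (adjusted p = 0.0893). *Slc16a7*, the neuronal lactate transporter, stood at 22.7, 22.6 and 24.0 TPM in Deletion and at 19.3, 17.4 and 11.8 TPM in WT, a log2 fold change of 0.48 ± 0.058 (adjusted p = 0.00226). *Gpd1* and *Gpd2*, the 2 arms of the glycerol phosphate shuttle, rose by 0.37 and 0.15 (adjusted p = 0.0125 and 0.0499). *Tigar*, which lowers fructose 2,6-bisphosphate, rose by 0.15 (adjusted p = 0.0471) and *Me3*, a mitochondrial malic enzyme, by 0.45 (adjusted p = 0.0279).

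The partners that fell included both glucose transporters called, *Slc2a4* (-0.45, adjusted p = 0.0175) and *Slc2a8* (-0.26, adjusted p = 0.0268). The phosphatase subunits that reverse the action of the kinases on the pyruvate dehydrogenase complex fell as well, *Pdp1* by a log2 fold change of -0.17 (adjusted p = 0.0168) and *Pdpr* by -0.16 (adjusted p = 0.0209). *Slc2a1*, the transporter of the blood-brain barrier, measured 36.1 to 45.1 TPM with a log2 fold change of 0.039 (adjusted p = 0.518). *Bsg*, the chaperone of the lactate transporters, had a log2 fold change of -0.044 (adjusted p = 0.375) and *Pdhx*, a structural subunit of the complex, -0.12 (adjusted p = 0.102). Further genes of this list that reached 1 TPM in any library, *Bpgm*, *Pgam5*, *Eno3*, *Eno4*, *Emb*, *Pdp2*, *G6pc3*, *Me1* and *Me2*, were not called.

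In the pentose phosphate pathway, which branches off at glucose 6-phosphate, *Pgls* and *Taldo1* rose by 0.14 and 0.13 (adjusted p = 0.0382 and 0.0329), 2 of 7 genes, and none fell. In the tricarboxylic acid cycle *Idh3g* and *Ogdh* rose by 0.21 and 0.22 (adjusted p = 0.011 and 0.0121) and *Idh2* fell with a log2 fold change of -0.18 (adjusted p = 0.0199), 3 of 18 genes. Of 20 targets of the hypoxia-inducible factors outside glycolysis, 4 rose and 5 fell. *Vegfa* rose by 0.28, *Ak4* by 0.32, *P4ha2* by 0.50 and *Higd1a* by 0.16, with adjusted p-values of 0.0147, 0.00705, 0.00501 and 0.0467. *P4ha2* was at 0.11 over protein-coding transcripts alone (adjusted p = 0.63). *Mxi1*, *Bnip3l*, *Kdm3a*, *P4ha1* and *Egln1* fell, with log2 fold changes of -0.45, -0.24, -0.20, -0.17 and -0.13. Of 16 regulators of the pathway only *Vhl* was called, at -0.20 (adjusted p = 0.0112).

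Other features of the libraries were also compared between genotypes, and their part in the results above was not tested. Of 10 proliferation genes, 8 fell and 1 rose, with summed levels of 373 to 418 TPM in Deletion and 418 to 437 TPM in WT. Of 10 mitochondrially encoded genes 9 rose, and 5 did so with no factors, at 44682 to 49017 TPM in sum against 31530 to 44457 TPM. Of 10 astrocyte markers 3 rose, at 820 to 900 TPM in sum against 714 to 826 TPM. Of 10 neuronal markers 3 rose, at 4625 to 5020 TPM in sum against 4573 to 4807 TPM. Both sums overlapped between groups, and no marker of either list was called lower. Other lists had falls. Of 10 hippocampal excitatory markers 2 rose and 2 fell, and of 6 interneuron markers 0 rose and 1 fell. Of 7 radial glia and progenitor markers 1 rose and 2 fell, and 0 fell with no factors. Of 6 erythroid markers tested 0 rose and 3 fell, and 1 fell with no factors. The summed TPM of each of these lists overlapped too. Among all tested genes, 12.6% were called higher, 12.1% lower and 24.7% in either direction. No defining marker of a listed cell type was at 0, those of excitatory neurons included. The pools differed in sex, since *Xist* stood at 0.184, 888 and 1.57 CPM in Deletion and at 182, 251 and 643 CPM in WT. Sex was thus not balanced between the genotypes. Of the X-linked members *Pgk1*, *Pdk3*, *Pdha1* and *Pfkfb1* none was called. Of the 7 members on chromosome 6, which carries *Emx1* and so the Cre allele, the nearest was *Hk2* at 2.41 Mb and none was called.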

How the data were processed

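The authors made poly(A)-selected stranded libraries and quantified them with Salmon 1.4.0 by selective alignment, with GRCm39 as decoy. The deposited values per transcript were estimated counts, normalised for nothing, and TPM, which Salmon divides by effective length and scales to the same total in each library. For the index, the annotation release was not stated in the sources used here. Of 12 transcripts whose structure is described, 6 had the same length in the deposited tables as in the GENCODE release used here and 6 were shorter.

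Both units were summed per gene with the transcript table of GENCODE, which matched 137570 of 139225 transcripts (0.589% to 0.600% of counts were unmatched). Genes that reached 0.25 CPM in 3 or more libraries were kept and scaled by TMM (edgeR 4.0.16). Log2 CPM values (prior count 2) were fitted with limma-trend (limma 3.58.1, R 4.3.3) and 2 factors of unwanted variation, with Benjamini-Hochberg adjustment and a threshold of 0.05. The factors were estimated by the RUVs method from these libraries, with 2 residual degrees of freedom, so p-values measure only the spread between pools that the factors left. Transcript usage was tested with diffSplice, and TPM shares of isozymes with exact permutation tests. The code was tested on simulated data. Count tables were also fitted with DESeq2 1.42.0 and edgeR's quasi-likelihood test as alternatives, with estimated counts rounded, and other filters, scalings, factors, left-out libraries and summed gene copies were tried. Protein-coding transcripts alone were counted as an added alternative. Estimated counts divide reads among overlapping transcripts, so the levels of transcripts that share exons depend on that division.

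Named genes were all 36 members, the called genes of the neighbouring pathway lists, isozymes at 1 TPM or more in any library, and transcripts with at least 10% of a member's TPM in any library, of which those with overlapping groups are counted and not all named. A gene that met this rule is not reported here. The list of members was given and the other lists were written, both with earlier results of these data known. Sequences and coordinates were read from GRCm39. Totals of 71400300 to 86207971 estimated counts set the counting error, and the number of pools limits precision.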

Additional observations from a re-analysis of the deposited data

How the results depend on the processing

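Under 28 alternatives, 20 planned and 8 chosen after seeing the data, 916 of 1007 member values kept their direction and side of the threshold, 47 lost the call, 40 gained it and 4 reversed. The reversals were *Pfkp* (-0.35 with and without factors) and *Gpi1* (-0.32 with and without factors), over protein-coding transcripts alone. Against 3 members that rose, 2 RUVr factors gave 6, beside 15.8% of all genes called higher. The fit with no filter on low counts gave 0 that rose and 1 that fell in limma-trend (7 and 6 at an unadjusted p below 0.05), where 3.14% of all genes were called. With the filter and no factors, edgeR gave 3 and 2, beside 10.9% of all genes called higher and 9.87% lower. DESeq2 gave 4 and 3 there, beside 11.9% and 12.1%. Against 4 members that fell, 2 did so with no factors (9.96% of all genes called lower), 1 RUVs factor (11.6%) or edgeR without factors (9.87%). The same number fell with upper-quartile scaling (8.90%), a filter at 1 CPM (12.7%) or length-scaled counts (8.76%). With a library left out, with or without factors, 3 to 7 rose, 1 to 7 fell, 12 to 40 of the neighbouring pathway genes were called against 25, and 1 to 8 members had a called transcript usage against 5. The pathway genes called were 12 without WT replicate 3 and factors (10.6% of all genes), 14 without Deletion replicate 2 and factors (14.3%), 15 without WT replicate 2 and factors (10.8%), 18 without WT replicate 2 (16.8%) and 40 without Deletion replicate 2 (34.9%). With no filter, 5 pathway genes were called. The members' median log2 fold change stayed between 0.011 and 0.058.

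The replicate numbers did not pair the samples, since same-numbered libraries deviated with correlations of 0.011, -0.071 and 0.043. With the replicate number as a block, 5 members rose and 2 fell, beside 11.1% of all genes called higher and 9.36% lower. *Slc16a3* had the fewest counts of the members, 39 to 72 per library.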
